A study of Mus musculus with 22 samples.

Results

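The genes described here are 10 growth arrest genes around p21 and p53: Cdkn1a, Cdkn1b, Trp53, Mdm2, Ccng1, Btg2, Zmat3, Gadd45a, Gadd45b and Gadd45g. They were chosen by symbol from the 15448 genes of the count table, with earlier results of these data known. The rule itself set no threshold on a measured value. All 10 were in the table, and all 10 were among the 14785 genes with enough reads to be tested. Liver RNA came from 22 male wild-type CD2F1 mice in 3 groups. The CT group held 6 mice that had a sham injection and received vehicle. The C26 group held 8 mice injected with C26 cells, a mouse colon carcinoma line used as a model of cancer cachexia, the wasting that accompanies a tumour. The C26-TDCA group held 8 mice injected with the same cells and given taurodeoxycholic acid (TDCA), a taurine-conjugated secondary bile acid that depends on gut bacteria for its formation, at 10 mg/kg by daily intraperitoneal injection. The labels name a vehicle for CT alone. All tumour-bearing mice carried 1 tumour model, and no group received TDCA without a tumour.

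The protein p53, encoded by Trp53, is a transcription factor that is held low by Mdm2, a ubiquitin ligase that is itself a p53 target, and that is stabilised when DNA is damaged or a cell is stressed. Its best known arrest target is Cdkn1a, which encodes p21, an inhibitor of cyclin-dependent kinases (CDKs) that stops cells before DNA replication. In liver, p21 limits hepatocyte division after injury, and Cdkn1a, Btg2 and the Gadd45 genes can also be induced without p53, for example by cytokine, glucocorticoid or stress kinase signalling.

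The promoters of the 4 members with the largest rises in tumour-bearing mice are shown first, because p53 and several other factors act through short motifs near the start site. RefSeq promoter sequence on GRCm38.p6 was matched by symbol for 9 of the 10 members (all but Zmat3), with 10 start sites in all. Each window below is the 250 bases before a start, read 5′ to 3′ on the strand of the gene. The searches covered 300 bases, which are those 250 and the 50 after the start, on both strands. Capitals mark matches to the p53 response element (2 decamer sites side by side, at most 1 mismatch), to TGACGTCA (bound by CREB and ATF factors), to CACGTG (the E-box), to CCAAT or to TATAAA. The windows are chr17:29090729-29090978 (+) for the upstream start of Cdkn1a, chr1:134079156-134079405 (-) for Btg2, chr10:80929841-80930090 (+) for Gadd45b and chr13:51846425-51846674 (+) for Gadd45g.
Cdkn1a, upstream start: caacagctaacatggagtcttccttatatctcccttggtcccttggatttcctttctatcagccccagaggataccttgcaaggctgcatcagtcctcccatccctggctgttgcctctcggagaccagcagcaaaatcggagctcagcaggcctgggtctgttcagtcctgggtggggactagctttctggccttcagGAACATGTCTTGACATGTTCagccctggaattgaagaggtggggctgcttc
Btg2: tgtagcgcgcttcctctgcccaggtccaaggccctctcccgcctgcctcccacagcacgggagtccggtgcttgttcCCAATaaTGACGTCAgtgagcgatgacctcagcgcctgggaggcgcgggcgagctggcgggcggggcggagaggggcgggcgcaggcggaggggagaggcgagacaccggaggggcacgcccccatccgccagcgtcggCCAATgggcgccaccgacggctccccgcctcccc
Gadd45b: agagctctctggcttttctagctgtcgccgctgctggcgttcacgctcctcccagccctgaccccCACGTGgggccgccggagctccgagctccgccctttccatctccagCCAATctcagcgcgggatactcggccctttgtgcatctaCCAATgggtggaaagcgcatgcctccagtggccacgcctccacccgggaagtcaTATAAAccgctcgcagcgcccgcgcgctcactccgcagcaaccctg
Gadd45g: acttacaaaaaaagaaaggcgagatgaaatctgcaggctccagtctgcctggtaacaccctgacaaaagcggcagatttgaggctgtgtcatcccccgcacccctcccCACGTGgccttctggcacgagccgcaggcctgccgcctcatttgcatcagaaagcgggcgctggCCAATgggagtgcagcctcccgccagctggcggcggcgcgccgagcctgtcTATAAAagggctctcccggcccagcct
The Cdkn1a window holds a p53 response element with 1 mismatch, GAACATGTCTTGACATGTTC, at chr17:29090928-29090947, from 51 to 32 bases before the start. Of 32851 promoters of the same length, 18 (0.0548%) held such a match, and 3 (0.00913%) held one with 0 mismatches. Among the members with sequence, none of the other promoters held this element within 1 mismatch, and sites outside the 300 bases were not searched. The second RefSeq start of Cdkn1a, downstream at chr17:29093769, held none of the motifs searched. Which start the liver transcripts used was not determined. The Btg2 window holds TGACGTCA, present in 1.79% of all promoters, beside 2 CCAAT boxes, present in 37.4%. The windows of Gadd45b and Gadd45g each hold CACGTG (7.15% of all promoters), TATAAA (13.6%) and CCAAT, and no marked matches overlap. The search also covered TTCNNNGAA, the STAT site, found in no member and in 8.3% of all promoters, and GTAAACA, the FoxO site, found in Mdm2 and in 3.65%. The searched bases of Trp53, which gave no called difference, held each of the motifs named for Gadd45b and Gadd45g. Matches to CCAAT also lay in the promoters of Cdkn1b, Mdm2, Ccng1 and Gadd45a, none of which was called higher. The motifs shared by Gadd45b and Gadd45g were therefore not limited to members that rose. A match describes the letters of the window only, and binding was not measured.

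Values are CPM, the usual per-million scaling of counts to library size, with library totals adjusted by the trimmed mean of M values, and tests are edgeR's quasi-likelihood test with Benjamini-Hochberg adjustment over all 14785 genes. A gene is called at an adjusted p under 0.05, and a log2 fold change (log2FC) is given with its standard error (SE) and an approximate 95% interval from it. Library totals ran from 16.5 M to 28.3 M counts, so that 3 counts came to between 0.10 and 0.18 CPM. The first principal component carried 60.7% of the variance and placed the 6 CT libraries between -92.7 and -85.0 and the 16 tumour libraries between 4.02 and 51.5. All 7 hepatocyte markers were detected in every group, with summed levels of 55968 to 65152 CPM in CT, 22411 to 33600 CPM in C26 and 25307 to 32988 CPM in C26-TDCA. Of the 7 hepatocyte markers, 1 was called higher in C26 than in CT, 4 lower and 2 not called, with a median log2FC of -0.51. Markers of other liver cells also moved with the tumour. All 10 Kupffer cell (resident macrophage) markers were called higher in C26 than in CT, with summed levels of 276 to 319 CPM in CT and 444 to 685 CPM in C26. Of the 12 monocyte and neutrophil markers, 7 could be tested and 6 were higher (2.204 to 6.44 against 17.9 to 47.2 CPM), and Ngp, Ltf, Camp and Mpo were not in the table. Of 9 stellate cell markers, 8 were higher and 1 lower (187 to 264 against 326 to 522 CPM), and 8 of 9 sinusoidal endothelial markers were higher (256 to 310 against 346 to 595 CPM). Of 5 cholangiocyte markers in the table, 2 were higher and 3 not called, with a median log2FC of 0.08. Their summed levels (19.3 to 32.6 against 239 to 763 CPM) therefore do not describe the list as a whole. T and NK cell markers gave 2 lower of 3 tested, B and plasma cell markers 1 lower of 6, and erythroid markers 4 higher and 1 lower of 5. In C26-TDCA the summed levels were 513 to 684 CPM for Kupffer cells, 17.0 to 41.9 for monocytes and neutrophils, 425 to 577 for stellate cells, 477 to 599 for endothelium and 260 to 637 for cholangiocytes. The part of these cells in the results below was not tested, and in whole liver more cells of a type and more RNA per cell cannot be told apart.

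C26 liver had more RNA of Cdkn1a, Btg2, Gadd45b, Gadd45g and Zmat3 than sham liver, slightly less of Ccng1 and Cdkn1b, and no called difference in Trp53, Mdm2 or Gadd45a. The rises ran from 1.36-fold for Zmat3 to 20.8-fold for Cdkn1a, and the log2FC of the 2 called lower were -0.14 and -0.23. With upper-quartile scaling, or after removal of a length and GC trend, 0 members were called lower. In C26 minus CT, 5 of 10 members were therefore called higher and 2 lower, where 28.9% of all tested genes were called higher and 29.2% lower (58.1% either way). In 3 members, Cdkn1a, Btg2 and Gadd45b, every C26 library was above every CT library, against 14.2% of all tested genes, and no member lay wholly below CT (29.5% of all genes did not overlap either way, 15.3% of all lower). The median log2FC of the 10 was 0.25, and that of all genes was -0.00. Counted without the C26 and C26-TDCA libraries highest in Cdkn1a, a choice made after seeing the data, 5 members were higher and 1 lower. No member was called in C26-TDCA minus C26, where 1.97% of all genes were.

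**Figure D1:**
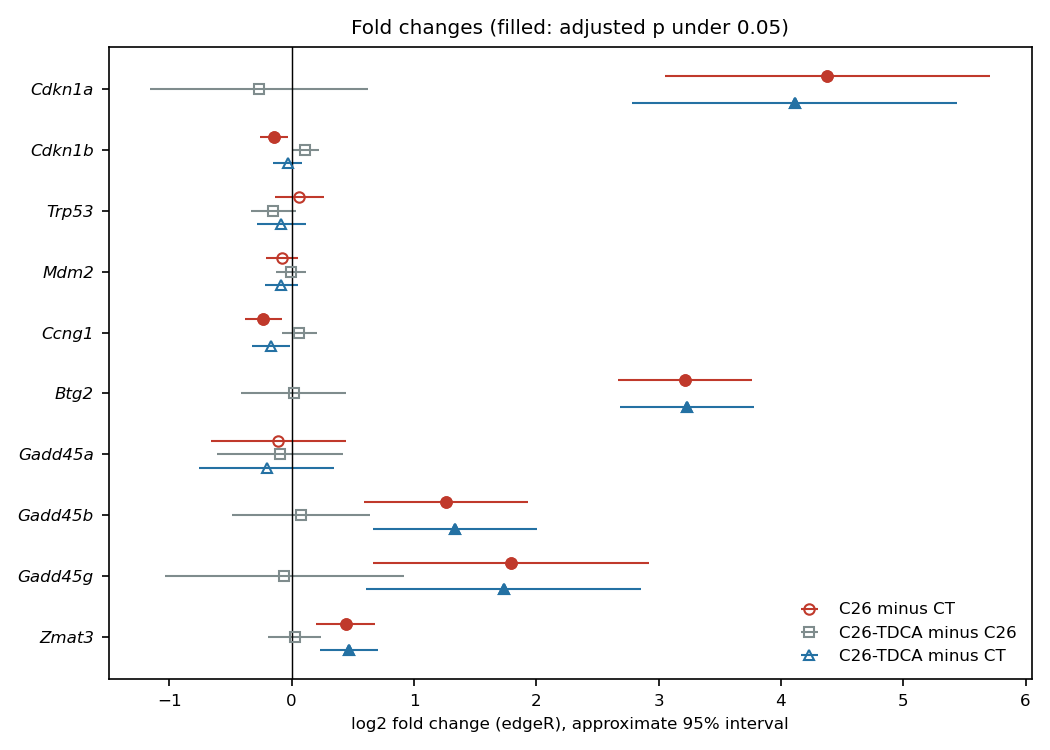
Log2 fold change of each of the 10 genes in the 3 comparisons, with bars for the approximate 95% interval and filled symbols for an adjusted p under 0.05. Cdkn1a (4.38) and Btg2 (3.21) lie farthest to the right in C26 minus CT, and the C26-TDCA minus C26 symbols are all open.

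Trp53 encodes p53 itself (ENSMUSG00000059552, chr11:69580359-69591873, + strand). Its lowest, median and highest levels were 13.8, 15.1 and 19.5 CPM in CT, 13.3, 16.6 and 20.2 CPM in C26, and 12.7, 14.6 and 17.4 CPM in C26-TDCA. The 3 groups overlapped over nearly their whole ranges. The log2FC was 0.06 (SE 0.10, interval -0.14 to 0.26, adjusted p = 0.622) in C26 minus CT.

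Mdm2, the ubiquitin ligase that marks p53 for degradation (ENSMUSG00000020184, chr10:117688875-117710758, - strand), also overlapped between groups. Levels were 25.9, 28.6 and 32.2 CPM in CT, 23.6, 27.1 and 29.4 CPM in C26, and 24.3, 26.3 and 31.0 CPM in C26-TDCA. The C26 minus CT log2FC was -0.08 (SE 0.07, interval -0.21 to 0.05, adjusted p = 0.333), and -0.008 with upper-quartile scaling. The interval does not cover error in the scaling. Mdm2 is both a regulator and a p53 target, and the part of p53 in its level was not tested.

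Cdkn1a, encoding p21 (ENSMUSG00000023067, chr17:29090976-29100727, + strand), was scarce in sham liver and rose in every tumour-bearing mouse. The 6 CT libraries held 0.299, 0.524, 0.565, 0.787, 0.803 and 1.19 CPM, from 6 to 28 counts each. The 8 C26 libraries held 4.26, 4.30, 5.68, 5.86, 8.30, 22.4, 28.1 and 38.3 CPM, from 90 to 995 counts. The lowest C26 library was thus above the highest CT library, and within C26 there were 3 libraries at 22.4 CPM or more and 5 at 8.30 CPM or less. Mean levels were 0.695 ± 0.307 CPM (SD, n = 6) in CT and 14.7 ± 13.2 CPM (SD, n = 8) in C26, so the C26 standard deviation was 89.9% of its mean. The log2FC was 4.38 (SE 0.68, interval 3.05 to 5.71, adjusted p = 5.71e-06), which ranked Cdkn1a 118th of 14785 genes from the highest. With voomWithQualityWeights it was 3.73 (13.2-fold), and still called. Without replicate 1 of C26, the highest library, the C26 mean was 11.3 ± 9.80 CPM (SD, n = 7) and the log2FC was 3.999.

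Cdkn1b encodes p27, a CDK inhibitor related to p21 that is controlled largely through its breakdown (ENSMUSG00000003031, chr6:134920401-134925513, + strand). Its levels were 22.1, 25.6 and 28.1 CPM in CT, 20.2, 23.2 and 24.1 CPM in C26, and 23.4, 24.7 and 26.3 CPM in C26-TDCA. The CT and C26 ranges overlapped, with the top of C26 below the middle of CT. The log2FC was -0.14 (SE 0.06, adjusted p = 0.0435), and this call did not hold in 7 of 9 other settings, in which the adjusted p went up to 0.305. It was also lost on leaving out replicate 1, 2, 7 or 8 of CT or replicate 1, 2, 3, 6 or 8 of C26, in each case with a log2FC within the range from -0.18 to -0.11 over all such fits.

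Btg2, an antiproliferative partner of the CCR4-NOT deadenylase and a p53 target (ENSMUSG00000020423, chr1:134075170-134079120, - strand), rose in every tumour-bearing mouse. The lowest, median and highest levels were 3.81, 4.97 and 14.4 CPM in CT, 33.5, 63.9 and 75.4 CPM in C26, and 38.1, 58.1 and 79.2 CPM in C26-TDCA. No CT library reached the tumour ranges, although replicate 1 of CT stood above the other CT libraries, whose highest was 6.33 CPM. The log2FC was 3.21 (SE 0.28, interval 2.67 to 3.76, adjusted p = 5.78e-10), a 9.28-fold rise, and 3.61 without that library.

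Ccng1, which encodes cyclin G1, a p53 target that recruits a phosphatase to Mdm2 (ENSMUSG00000020326, chr11:40748552-40755311, - strand), moved the other way. Levels were 30.4, 31.4 and 33.6 CPM in CT, 20.4, 27.6 and 32.3 CPM in C26, and 24.5, 28.7 and 31.3 CPM in C26-TDCA. All but 1 of the 8 C26 libraries lay below the lowest CT library. Ccng1 fell by 0.23 on the log2 scale (SE 0.08, adjusted p = 0.0144), a call lost with upper-quartile scaling (-0.16, adjusted p = 0.0814) and after removal of a length and GC trend (-0.15, adjusted p = 0.0525). Over the 9 settings its adjusted p went up to 0.0814.

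Zmat3, a zinc-finger RNA-binding p53 target (ENSMUSG00000027663, chr3:32334792-32366014, - strand), rose modestly. Levels were 5.42, 6.53 and 8.03 CPM in CT, 6.98, 9.12 and 10.5 CPM in C26, and 6.60, 9.63 and 10.5 CPM in C26-TDCA. In each tumour group 6 of 8 libraries were above the highest CT library. The log2FC was 0.44 (SE 0.12, adjusted p = 0.00332), a 1.36-fold difference.

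The 3 Gadd45 genes encode small stress proteins that bind p21, PCNA and upstream kinases of p38 and JNK. Gadd45a, the classical p53 and damage target (ENSMUSG00000036390, chr6:67035096-67037457, - strand), gave no called difference, Gadd45b rose from a low level, and Gadd45g rose to the highest level per kilobase of the 10 in C26. Gadd45a levels were 2.62, 5.34 and 8.52 CPM in CT, 2.62, 4.08 and 9.29 CPM in C26, and 2.55, 4.54 and 8.86 CPM in C26-TDCA, so the groups covered nearly the same range. Its C26 minus CT log2FC was -0.11 (SE 0.28, interval -0.66 to 0.44, adjusted p = 0.765). The exons of E230016M11Rik, on the opposite strand, cover 337 bases of Gadd45a, and the sources used here do not give the strand setting of the counting, so reads there cannot be assigned to one of them. The same holds for 273 bases of Cdkn1a, which an exon of AC167363.2 overlaps on the opposite strand.

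Gadd45b, which is induced by TGF-beta and NF-kB signalling (ENSMUSG00000015312, chr10:80930073-80932204, + strand), was the scarcest of the 3. Levels were 0.234, 0.667 and 0.768 CPM in CT, 0.962, 1.201 and 2.27 CPM in C26, and 0.846, 1.14 and 3.51 CPM in C26-TDCA. Every tumour library was above every CT library, but the CT values rest on 6 to 19 counts and the C26 values on 21 to 50. The log2FC was 1.26 (SE 0.34, interval 0.59 to 1.93, adjusted p = 0.00283), a 2.40-fold rise.

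Gadd45g, a target of STAT signalling in liver (ENSMUSG00000021453, chr13:51846678-51848468, + strand), had the most uneven CT levels of the 10, with a standard deviation of 158% of the mean. The CT libraries held 1.89, 2.26, 2.35, 8.76, 24.8 and 87.7 CPM, against 57.9, 68.8 and 107 CPM (lowest, median and highest) in C26 and 48.7, 66.0 and 116 CPM in C26-TDCA. Replicate 6 of CT, at 87.7 CPM, lay within the tumour ranges, and the other 5 CT libraries were all below them. The CT mean was 21.3 ± 33.7 CPM (SD, n = 6) with that library and 8.01 ± 9.80 CPM (SD, n = 5) without it. The log2FC of C26 minus CT was 1.79 (SE 0.57, adjusted p = 0.00973), and it was 3.25 (adjusted p = 2.27e-06) without replicate 6 of CT, the lowest adjusted p of the fits that each left out 1 library, which went up to 0.0257. With all libraries it was 3.14 with voomWithQualityWeights. That library held 0.803 CPM of Cdkn1a, exceeded among the CT libraries only by replicate 7, and the lowest CT level of Gadd45b, from 7 counts.

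**Figure D2:**
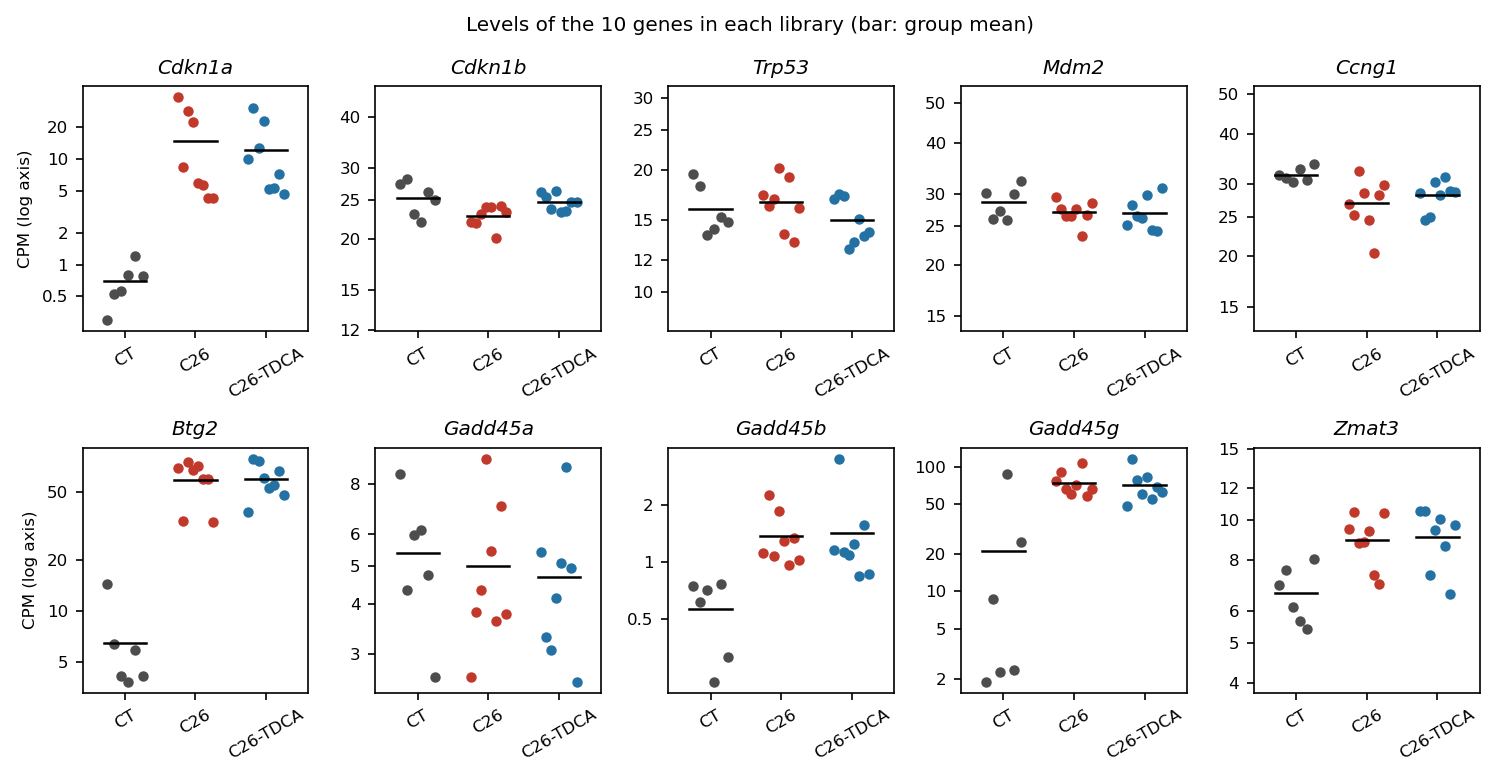
Level of each gene in every library, in CPM on a log axis that differs between panels, with a bar at each group mean (CT n = 6, C26 n = 8, C26-TDCA n = 8). Cdkn1a, Btg2 and Gadd45b show no overlap of CT with the tumour groups, and 1 CT library of Gadd45g sits at 87.7 CPM.

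Levels of different members can be compared only per kilobase of exon. On that scale Cdkn1a was the lowest of the 10 in CT, at 0.196 ± 0.086 CPM per kb (SD, n = 6), and 6th in C26, at 4.13 ± 3.71 CPM per kb (SD, n = 8). Gadd45g was 1st in C26, at 63.7 ± 14.4 CPM per kb, and in C26-TDCA. In CT it averaged 18.2 ± 28.7 CPM per kb, ahead of Ccng1, but 6.83 ± 8.35 CPM per kb (SD, n = 5) without replicate 6, below Ccng1. Btg2 went from 2.34 in CT to 21.5 CPM per kb in C26. In C26 the ranges of Gadd45g, Btg2, Ccng1 and Mdm2 followed each other in that order without overlap. Mdm2, Cdkn1b, Cdkn1a, Trp53 and Gadd45a, the neighbours from 5.32 to 2.83 CPM per kb, overlapped. In CT, Gadd45g ranged from 1.61 to 74.8 CPM per kb, the highest in replicate 6. Of the others in CT, Ccng1 at 9.03 ± 0.34 CPM per kb lay above Mdm2 at 5.62 without overlap, and so did Cdkn1b above Trp53 and Btg2 above Zmat3.

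TDCA given to tumour-bearing mice moved none of the 10 to a call. In C26-TDCA minus C26, 0 of 10 members were called by edgeR, against 1.97% of all genes (1.73% higher, 0.237% lower). Before adjustment no member was under 0.05 (0 of 10), and the DESeq2 test called 0. In every member the 2 tumour groups overlapped, where 0.149% of all genes did not (0.0947% higher, 0.0541% lower). The 8 C26-TDCA libraries held 4.67, 5.22, 5.29, 7.18, 10.1, 12.6, 22.9 and 30.04 CPM of Cdkn1a, a spread that covered most of the C26 range. The log2FC of Cdkn1a was -0.27 (SE 0.45, interval -1.15 to 0.62, adjusted p = 0.832), so a difference of up to 1.15 downward was not resolved. Precision was much finer for members with even levels: the interval was -0.13 to 0.12 for Mdm2 (log2FC -0.01), -0.33 to 0.04 for Trp53 (-0.15), -0.08 to 0.21 for Ccng1 (0.06) and -0.41 to 0.45 for Btg2 (0.02). The widest interval was that of Gadd45g, at -1.04 to 0.91 (log2FC -0.06), and those of Gadd45b and Gadd45a were narrower than that of Cdkn1a, at -0.49 to 0.64 (0.07) and -0.61 to 0.42 (-0.09). Cdkn1b came closest to the threshold, at 0.11 (SE 0.06, approximate interval 0.004 to 0.22, unadjusted p = 0.0542, adjusted p = 0.328). Its levels were 24.7 ± 1.15 CPM (SD, n = 8) in C26-TDCA and 22.9 ± 1.39 CPM (SD, n = 8) in C26. For this gene 5 of 8 C26-TDCA libraries were above the highest C26 library.

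C26-TDCA liver was also compared with the CT libraries, which it shares as controls with the comparison above. Cdkn1a, Btg2, Gadd45b, Gadd45g and Zmat3 (5 of 10) were called higher, and 0 of 10 lower, where 28.7% of all genes were called higher and 28.2% lower (57.0% either way). Cdkn1a was at 12.3 ± 9.38 CPM (SD, n = 8), with a log2FC of 4.11 (SE 0.68, adjusted p = 1.34e-05). Btg2 was at 59.8 ± 14.0 CPM, with a log2FC of 3.23 (SE 0.28, adjusted p = 5.03e-10). The values for Gadd45b, Gadd45g and Zmat3 were 1.34 (SE 0.34), 1.73 (SE 0.57) and 0.47 (SE 0.12), and Gadd45g came to 3.18 without replicate 6 of CT and 3.11 with voomWithQualityWeights. Cdkn1a, Btg2 and Gadd45b again did not overlap CT, against 15.4% of all genes on the higher side (31.6% either way, 16.2% lower). Ccng1 at -0.17 (SE 0.08, adjusted p = 0.0713) and Cdkn1b at -0.03 (SE 0.06, adjusted p = 0.684) were not called lower here. Ccng1 was called lower in 3 of 9 other settings (-0.16 with only the 2 groups compared and with voomWithQualityWeights, -0.21 after removal of the trend, adjusted p over all 9 up to 0.199), and without replicate 6 of C26 or of C26-TDCA (-0.19 to -0.14 over all libraries left out).

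**Figure D3:**
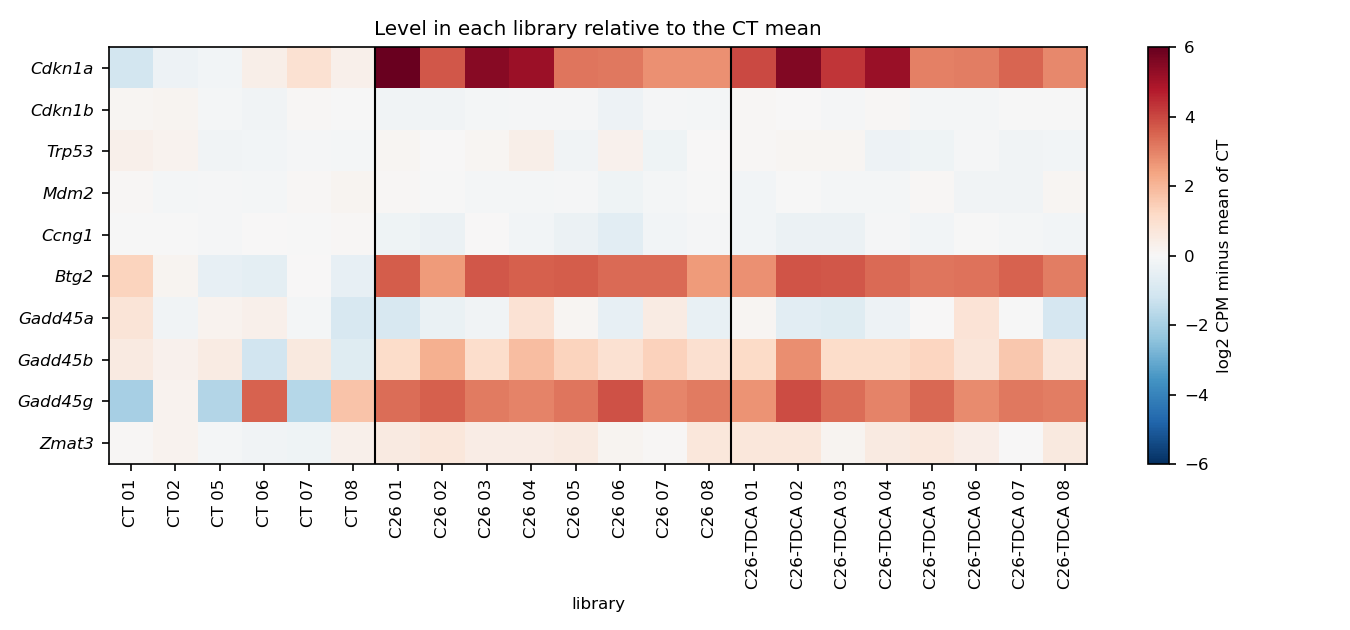
Log2 CPM of each gene in each of the 22 libraries minus its mean over the CT libraries, from blue (lower) to red (higher). Cdkn1a, Btg2 and Gadd45g are red across the 16 tumour libraries, and replicate 6 of CT reaches the depth of red of the tumour libraries in Gadd45g.

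Other p53 targets were called in both directions. Of 26 p53 targets outside the 10, 25 were tested in C26 minus CT, and 10 were higher, 6 lower and 9 not called, with a median log2FC of 0.23. All tested genes were likewise called in both directions (28.9% higher, 29.2% lower). Fas, the death receptor, rose from 11.2 ± 1.03 to 28.5 ± 3.21 CPM (log2FC 1.35, SE 0.08, adjusted p = 1.65e-12), while Xpc, a DNA damage sensor, and Sesn1, a stress-responsive inhibitor of mTORC1, fell by 0.49 and 0.66. Of 17 regulators of p53 and damage kinases, 1 was higher, 8 lower and 8 not called (median -0.05). Atm, the kinase that activates p53 after double-strand breaks, fell from 10.6 ± 1.49 to 4.11 ± 1.44 CPM (log2FC -1.35, SE 0.19). Chek2, a kinase it activates, fell by 1.30, and Cop1, a ubiquitin ligase for p53, by 0.30, though not after removal of a length and GC trend (-0.07, adjusted p = 0.513).

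Cell cycle genes around the CDK inhibitors were called in both directions in C26 minus CT, as were all tested genes (28.9% higher, 29.2% lower, 58.1% either way). Of 14 G1 cyclins, CDKs and pocket proteins, 1 was higher, 6 lower and 7 not called (median -0.21), with Rbl2, a pocket protein of quiescent cells, down by 1.06, Cdk6 by 0.71 and Rb1 by 0.56. Of 19 tested S and M phase genes, 7 were higher, 2 lower and 10 not called (median 0.51), with the replication licensing genes Mcm3 at 0.70 and Mcm2 at 0.68 and the topoisomerase Top2a at 1.69 (SE 0.42, 2.63 ± 1.09 against 0.806 ± 0.319 CPM). Cdkn2d, encoding the CDK4 and CDK6 inhibitor p19, rose by 0.72 (SE 0.21), the only called gene of 3 other CDK inhibitors tested. The p27 turnover list of 9 gave 2 higher, 5 lower and 2 not called (median -0.36), with Cul1 at 0.71, Rnf123 at -0.67 and Uhmk1 at -0.64.

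In the BTG and TOB family, to which Btg2 belongs, 2 of 4 tested genes were higher, 1 lower and 1 not called. Btg3 rose from 1.61 ± 0.521 to 12.4 ± 6.74 CPM (log2FC 2.94, SE 0.46), Btg1 rose by 0.52 and Tob1 fell by 0.53. The list named GADD45 partners holds kinases of the p38 and JNK pathways, whether or not GADD45 proteins bind them. All of its calls were downward: 6 of 7 were lower and 1 was not called (median -0.50). Map2k6, a p38 kinase kinase, went from 12.9 ± 2.41 to 1.63 ± 0.351 CPM (log2FC -2.96, SE 0.18). Of 6 FoxO factors and FoxO-linked arrest genes, 5 were lower and 1 was not called (median -0.57), Foxo3 by 1.14, Sesn3 by 0.92 and Foxo4 by 0.55. The medians compare with -0.00 over all genes, and the counts with 28.9% of all tested genes called higher and 29.2% lower.

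**Figure D4:**
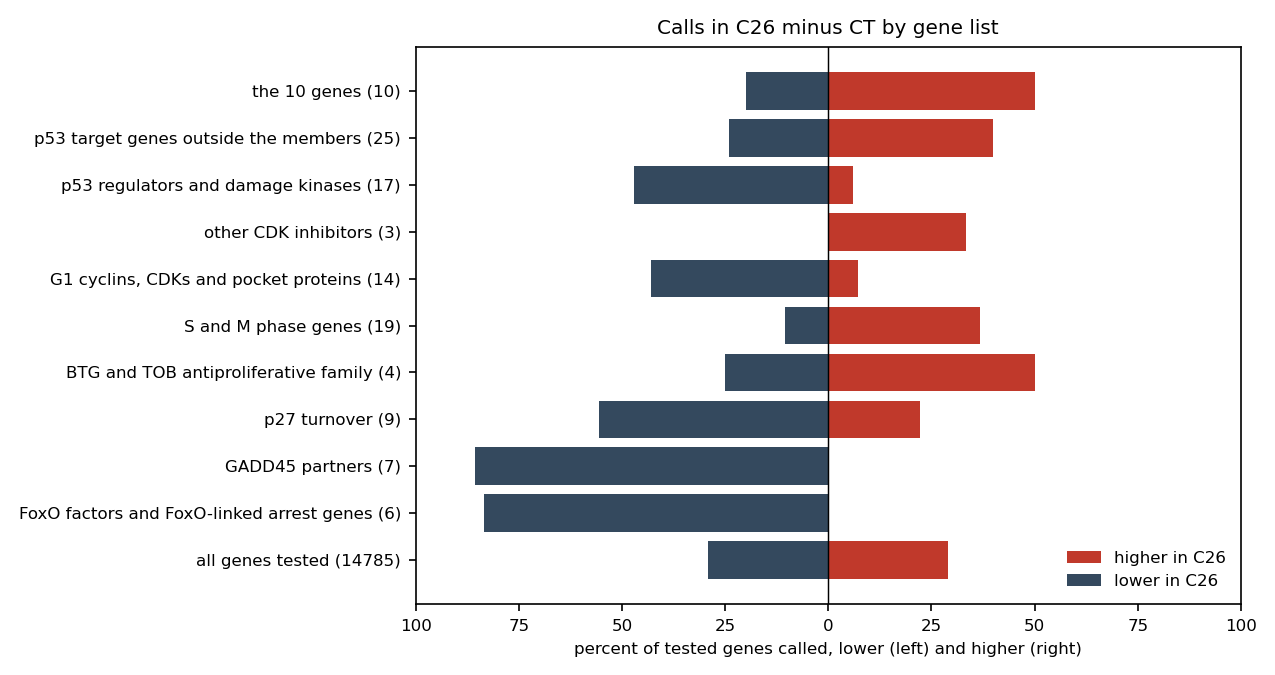
Percent of tested genes of each list called higher (right) or lower (left) in C26 minus CT, with the number tested in parentheses. Of the 10 genes 5 are higher and 2 lower, of the GADD45 partners 6 of 7 are lower, and all genes split evenly (28.9% and 29.2%). The 10 genes and the lists were chosen with earlier results of these data known.

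In C26-TDCA minus C26, 3 genes of these lists were called, where 1.97% of all tested genes were. In the order above, the lists held 25, 17, 14, 19, 3, 9, 4, 7 and 6 tested genes. Whether 3 calls exceed the share of all genes was not tested. Mdm4, the Mdm2 relative that inhibits p53, rose from 40.9 ± 7.97 in C26 to 56.9 ± 8.93 CPM in C26-TDCA (log2FC 0.48, SE 0.11, adjusted p = 0.0255), Atm from 4.11 ± 1.44 to 7.12 ± 1.70 CPM (0.78, SE 0.18, adjusted p = 0.0271) and Uhmk1, a kinase of p27, from 44.9 ± 5.80 to 57.0 ± 6.20 CPM (0.34, SE 0.08, adjusted p = 0.0274). No other listed gene was called: 15 of 17 p53 regulators, 8 of 9 p27 turnover genes and all genes tested in the other 7 lists were not. The 3 calls were lost in a fit of C26 and C26-TDCA alone, where the log2FC stayed at 0.48, 0.78 and 0.34 (adjusted p 0.0673, 0.0743 and 0.0673), and after removal of the length and GC trend (log2FC 0.25, 0.48 and 0.11, adjusted p 0.122, 0.132 and 0.458, the highest over 9 settings). Mdm4 and Atm were lost without replicate 5 or 6 of C26 or 3, 4 or 6 of C26-TDCA (Mdm4 0.42 to 0.55, Atm 0.68 to 0.89, over all libraries left out), Atm also without replicate 7 of C26, and Uhmk1 (0.30 to 0.39) without replicate 5, 6 or 8 of C26 or 2, 3, 4, 5 or 6 of C26-TDCA. In C26-TDCA minus CT the counts of higher, lower and not called were 8, 6 and 11 for p53 targets, 3, 4 and 10 for p53 regulators, 1, 7 and 6 for the G1 list, 7, 3 and 9 for S and M phase, and 0, 6 and 1 for GADD45 partners. Further counts were 1, 0 and 2 for the other CDK inhibitors, 2, 1 and 1 for BTG and TOB, 1, 5 and 3 for p27 turnover, and 0, 4 and 2 for the FoxO list. Of all tested genes, 28.7% were called higher in C26-TDCA minus CT and 28.2% lower.

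The genes with the pattern most like Cdkn1a across the 22 libraries were found by the root mean square difference of log2 CPM after centring each gene, among 11369 protein-coding genes at 1 CPM or more. They were Sox9 (0.62), Serpina3i (0.68), Rtn4rl2 (0.70), Adamts15 (0.77) and Arntl (0.78), where Cdkn1a itself had a standard deviation of 1.99. Sox9, a ductal and progenitor transcription factor and 1 of the cholangiocyte markers above, averaged 1.59 CPM in CT, 27.3 in C26 and 24.7 in C26-TDCA. Arntl, the clock factor BMAL1, averaged 0.993, 8.18 and 6.98 CPM. Of the other members Btg2 was nearest, at 1.01 and 86th in order, while Trp53 (1.93) and Mdm2 (1.97) lay about as far from Cdkn1a as its own standard deviation.

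Within the 16 tumour-bearing livers, where Cdkn1a ranged from 4.26 to 38.3 CPM, its log2 CPM was compared with that of each of the other 9 members. The mean of the C26 or C26-TDCA group was first subtracted from each value, so the relations are those among mice of the same group. None of the 9 relations reached an adjusted p under 0.05. The strongest was with Btg2 (Pearson's r = 0.52, permutation p = 0.0567, adjusted 0.446; Spearman's rho = 0.63, permutation p = 0.0134, adjusted 0.121), and r was 0.41 without replicate 1 of C26 and replicate 2 of C26-TDCA, the 2 libraries farthest from the median. With Trp53, r was 0.45 (permutation p = 0.0991, adjusted 0.446), rho was 0.52 (permutation p = 0.0528, adjusted 0.237) and r without those libraries was 0.37. With Mdm2, r was 0.06 (permutation p = 0.836, adjusted 0.836) and rho was -0.14 (permutation p = 0.618, adjusted 0.696).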

How the data were processed

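Liver poly(A) RNA was sequenced from 22 mice. The authors deposited raw counts per Ensembl gene. Per the submitters' processing notes, reads were demultiplexed with bcl2fastq 2.17, checked with FastQC, trimmed with Trimmomatic 0.40, aligned to GRCm38 with HISAT2 2.2.1 and counted with featureCounts 2.0.3, and DESeq2 1.42.0 is also listed. For the annotation release and the strand setting, the sources used here say nothing. GENCODE M21 gave symbols for 15443 of 15448 genes, and coordinates and exon lengths for the members. Genes were filtered with filterByExpr (minimum count 10), scaled by TMM and fitted on all 3 groups with edgeR 4.0.16 in R 4.3.3 by the quasi-likelihood test. The fit was tested on simulated data. Alternatives were DESeq2 1.42.0, its size factors, upper-quartile scaling, no filter, only the groups compared, voomWithQualityWeights with limma 3.58.1, a replicate block, removal of a length and GC trend (loess span 0.3), and leaving out each library. The 10 members were named in every comparison, with up to 3 called genes of each list by lowest p at 1 CPM or more (1 gene where none was called). The 5 genes most like Cdkn1a were found on log2 CPM (prior count 2). Permutation tests of correlations used log2 CPM minus the group mean, and were two-sided with 100000 resamples within groups. Members and lists were chosen with earlier results of these data known, and the promoter motif search of 300 bases was added after the data were seen, in place of a wider search that was not run. Libraries of a group all differed by more than sampling noise (chi-square per degree of freedom of 10.4 or more).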

Additional observations from a re-analysis of the deposited data

Results flagged for a closer look

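Of 30 groups of values (10 genes in 3 groups), 4 had 1 library apart from the rest by Dixon's criterion on CPM. Chance meets it in about 1 in 20 groups of normally distributed values, a rate that skewed levels need not keep. The criterion was not applied to log2 CPM. Gadd45g was at 87.7 CPM in replicate 6 of CT, where the next library was at 24.8 CPM and the median of the others was 2.35 CPM. Btg2 was at 14.4 CPM in replicate 1 of CT, where the next was at 6.33 CPM and the median of the others was 4.11 CPM, and the CT mean was 4.84 ± 1.16 CPM (SD, n = 5) without it. Gadd45b was at 3.51 CPM in replicate 2 of C26-TDCA, where the next was at 1.57 CPM, and the mean was 1.13 ± 0.245 CPM (SD, n = 7) without it. Gadd45a was at 8.86 CPM in replicate 6 of C26-TDCA, where the next was at 5.41 CPM, and the mean was 4.07 ± 1.11 CPM (SD, n = 7) without it. The 4 cases fell in 4 different libraries.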

How the results depend on the processing

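The number of members called was 5 to 7 in C26 minus CT, 0 in C26-TDCA minus C26 and 4 to 6 in C26-TDCA minus CT over 9 settings, and 6 to 7, 0 and 5 to 6 on leaving out each library. Genes called in C26-TDCA minus C26 moved most: 291 as reported, 536 with DESeq2, 45 with only the 2 groups compared, 468 with voomWithQualityWeights, 17 with the length and GC trend removed, 457 without replicate 1 of C26 and replicate 2 of C26-TDCA, and 59 (without replicate 4 of C26-TDCA) to 594 (without replicate 1 of C26) leaving out 1 library. The share of higher calls there went from 88.0% to 52.9% with that trend removed. No cause of these shifts was tested. Differences that reversed were all uncalled. In C26-TDCA minus C26 they were Btg2 at -0.00696 (upper-quartile scaling) and, without the 2 libraries named, Btg2 at -0.0109, Gadd45b at -0.304 and Mdm2 at 0.00319; Cdkn1a at 0.105 and Gadd45b at -0.0557 with voomWithQualityWeights; and Cdkn1b at -0.0138, Ccng1 at -0.056, Gadd45g at 0.0375 and Zmat3 at -0.148 with the trend removed. Trp53 in C26 minus CT was -0.12 with the trend removed, and Cdkn1b in C26-TDCA minus CT was 0.0165 with upper-quartile scaling. Leaving out 1 library, C26-TDCA minus C26 ranged from -0.0686 to 0.0922 for Btg2, -0.60 to 0.12 for Cdkn1a, -0.29 to 0.10 for Gadd45a, -0.27 to 0.21 for Gadd45b, -0.196 to 0.0319 for Gadd45g, -0.0375 to 0.0138 for Mdm2 and -0.0191 to 0.0812 for Zmat3, and C26 minus CT from -0.305 to 0.0613 for Gadd45a. The correlation of Cdkn1a with Mdm2, Gadd45a and Gadd45g became -0.219, 0.0732 and -0.183 without the 2 farthest libraries. DESeq2 gave no adjusted p for Gadd45g. Members at 6 counts, Cdkn1a and Gadd45b in CT, are limited by depth.

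With the replicate number as a block, 280 genes were called in C26-TDCA minus C26, Gadd45b was at -0.0114, Gadd45g at 0.00522 and Uhmk1, no longer called, at 0.346. The block also put Cdkn1a at 3.68 (12.8-fold) and Gadd45g at 2.74 in C26 minus CT, and Gadd45g at 2.75 in C26-TDCA minus CT, all called. Each library came from a different mouse, and no label says what libraries of the same number share. The correlations did not link the numbers in every pair: same-numbered libraries correlated at -0.08 to 0.05 between C26 and CT (0 of 6 over 0.1), -0.20 to 0.34 between C26-TDCA and C26 (5 of 8) and -0.01 to 0.13 between C26-TDCA and CT (1 of 6). In these comparisons 0 of 6, 2 of 8 and 3 of 6 correlated best with their own number.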
